A study of Mus musculus with 20 samples.

Results

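The metabolic nuclear receptors are transcription factors that read lipids, bile acids and foreign compounds. Here they are 10 genes, picked by symbol from the 46095 gene symbols of the mouse liver counts table: Ppara, Ppard, Pparg, Nr1h2, Nr1h3, Nr1h4, Nr1i2, Nr1i3, Rxra and Hnf4a. All 10 were in the table, and 9 passed the low-count filter, as 14440 genes did in all; Ppard did not pass it. The libraries came from livers of wild-type (WT) mice and of mice with a liver-specific knockout of Pck1 (Pck1-cKO, here KO), fed either chow or a diet named for non-alcoholic steatohepatitis (NASH diet). There were 5 libraries in each of the 4 groups, WT chow, WT NASH, KO chow and KO NASH. Each diet was given for 24 weeks, and all mice were 31 to 33 weeks old. The sources used here give no Cre driver, strain, sex or make-up of the NASH diet. The deleted gene, Pck1, codes for an enzyme of gluconeogenesis.

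These receptors bind DNA as zinc-finger proteins, and most pair with RXR alpha (Rxra), the shared partner. PPAR alpha (Ppara) drives fatty acid oxidation in the fasted liver, PPAR delta (Ppard) is a broadly expressed relative, and PPAR gamma (Pparg) is the regulator of fat storage that is best known from adipocytes. The liver X receptors LXR beta (Nr1h2) and LXR alpha (Nr1h3) respond to oxysterols, and the farnesoid X receptor FXR (Nr1h4) responds to bile acids. The pregnane X receptor PXR (Nr1i2) and the constitutive androstane receptor CAR (Nr1i3) control drug metabolism, and HNF4 alpha (Hnf4a) maintains the hepatocyte programme as a homodimer.

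The receptors contact pairs of an AGGTCA-like hexamer, and the spacing and orientation of the pair differ between them. A direct repeat, AGGTCA followed by AGGTCA with 1 base of any kind between them (DR1), is the arrangement known for PPAR and HNF4 alpha. The same repeat with 4 bases between (DR4) is known for LXR, PXR and CAR, and an inverted repeat, AGGTCA and then TGACCT with 1 base between (IR1), for FXR. The 250 bases before each start in the RefSeq promoter table (GRCm38.p6, mouse) were searched on both strands with up to 2 mismatches. Of all 32851 promoters of that length, 3.24% held DR1, 2.57% DR4 and 0.959% IR1. The table held 15 promoters for the 10 receptors, and those of Rxra, Nr1h4 and Nr1i3 held a match. Among the target genes described below, 99 of 129 had a promoter in the table. The sequences that follow are the 3 receptor matches and 4 of targets that were called in at least 1 comparison, chosen to show each arrangement. They read 5′ to 3′ along the gene's strand, with the match in capitals. Rxra (DR1 with 2 mismatches, 63 to 75 bases before the start) lies on the plus strand at chr2:27709202-27709244. Nr1h4 (DR1 read on the opposite strand, 2 mismatches, 209 to 221 bases before the start) lies on the minus strand at chr10:89506852-89506894. Nr1i3 (IR1, 2 mismatches, 5 to 17 bases before the start) lies on the plus strand at chr1:171213938-171213969. Abcb11 (IR1, 1 mismatch, 51 to 63 bases before the start) lies on the minus strand at chr2:69342652-69342694. Cyp3a11 (DR4, 1 mismatch, 157 to 172 bases before the start) lies on the minus strand at chr5:145879996-145880041. Cd36 (DR1 on the opposite strand, 2 mismatches, 51 to 63 bases before the start) lies on the minus strand at chr5:17835932-17835974. Plin2 (DR1 on the opposite strand, 2 mismatches, 213 to 225 bases before the start) lies on the minus strand at chr4:86670257-86670299. A match describes the letters and does not show binding.
Rxra: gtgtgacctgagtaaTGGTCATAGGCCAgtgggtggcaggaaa
Nr1h4: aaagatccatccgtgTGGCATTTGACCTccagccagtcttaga
Nr1i3: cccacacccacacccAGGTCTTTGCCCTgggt
Abcb11: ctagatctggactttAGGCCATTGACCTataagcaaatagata
Cyp3a11: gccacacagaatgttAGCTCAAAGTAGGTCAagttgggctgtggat
Cd36: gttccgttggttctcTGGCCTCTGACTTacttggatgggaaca
Plin2: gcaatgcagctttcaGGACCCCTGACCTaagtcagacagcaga

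The 20 libraries held 9958935 to 20601955 counts. Levels below are in CPM, counts scaled to a common library size after TMM correction, and a gene was called where the Benjamini-Hochberg adjusted p of edgeR's quasi-likelihood test, over all 14440 genes, was under 0.05. Pck1 lay at 1701 to 4641 CPM in the 10 WT libraries and at 300.4 to 861 CPM in the 10 KO libraries, with no overlap. Hepatocyte markers summed to 47643 to 121339 CPM. Of these 6 markers only Hpd was called in a comparison of groups, lower on the NASH diet in both genotypes. Of all genes, 3.24% were called lower on that diet in WT and 1.52% in KO. In 6 libraries (WT chow 3, 4 and 5, WT NASH 4, KO chow 4 and 5) the level relative to the other libraries fell with the exonic length of the gene, with a slope of -0.34 to -0.25 log2 CPM per doubling of length. The slope was 0.0098 to 0.194 in the other 14 libraries, and no KO NASH library was among the 6. Counts of 4 Y-linked genes were used to read the sex. All WT chow libraries were read as male. In WT NASH replicate 4 alone was male, KO chow 3 and 5 and KO NASH 2 were read as female, and the rest of the KO libraries as male. The labels do not state that each library is a separate mouse, and the p-values measure the spread between these libraries.

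By edgeR no receptor was called in any comparison. The count was 0 of 9 in WT NASH against WT chow, where 5.93% of all genes were called, in KO chow against WT chow (5.53%), in KO NASH against WT NASH (9.65%), in KO NASH against KO chow (3.29%) and in the genotype by diet interaction (0.139%). With 9 genes, each of these shares comes to less than 1 gene, so the counts of 0 lie near the background. At an unadjusted p under 0.05 the counts were 5, 1, 1, 1 and 0, in the same order, against 22.1%, 19.4%, 25.6%, 22.2% and 8.25% of all genes. No receptor differed by 2-fold or more in a comparison of groups, whereas 10.5% of all genes did so in WT NASH against WT chow and 16.2% in KO NASH against WT NASH. DESeq2 called 2, 1, 0, 1 and 0 receptors in the same order (10.4%, 9.63%, 15.2%, 9.04% and 1.31% of all genes). Limma voom with sample quality weights called 6, 2, 1, 2 and 0 (40.6%, 40.4%, 23.8%, 12.7% and 13.5% of all genes). Models with added terms, used below, called 12.3%, 11.4%, 16.5% and 6.37% of all genes in the 4 comparisons of groups with the length slope as a term, 1.11%, 5.84%, 4.33% and 3.98% with sex, and 5.01%, 13.8%, 10.4% and 9.37% with both. The 14 libraries with a slope above 0 gave 4.88%, 5.33%, 20.3% and 7.69%. The comparisons share libraries: WT chow is the reference of both the WT diet and the chow genotype comparison, and their values are not independent.

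**Figure D1:**
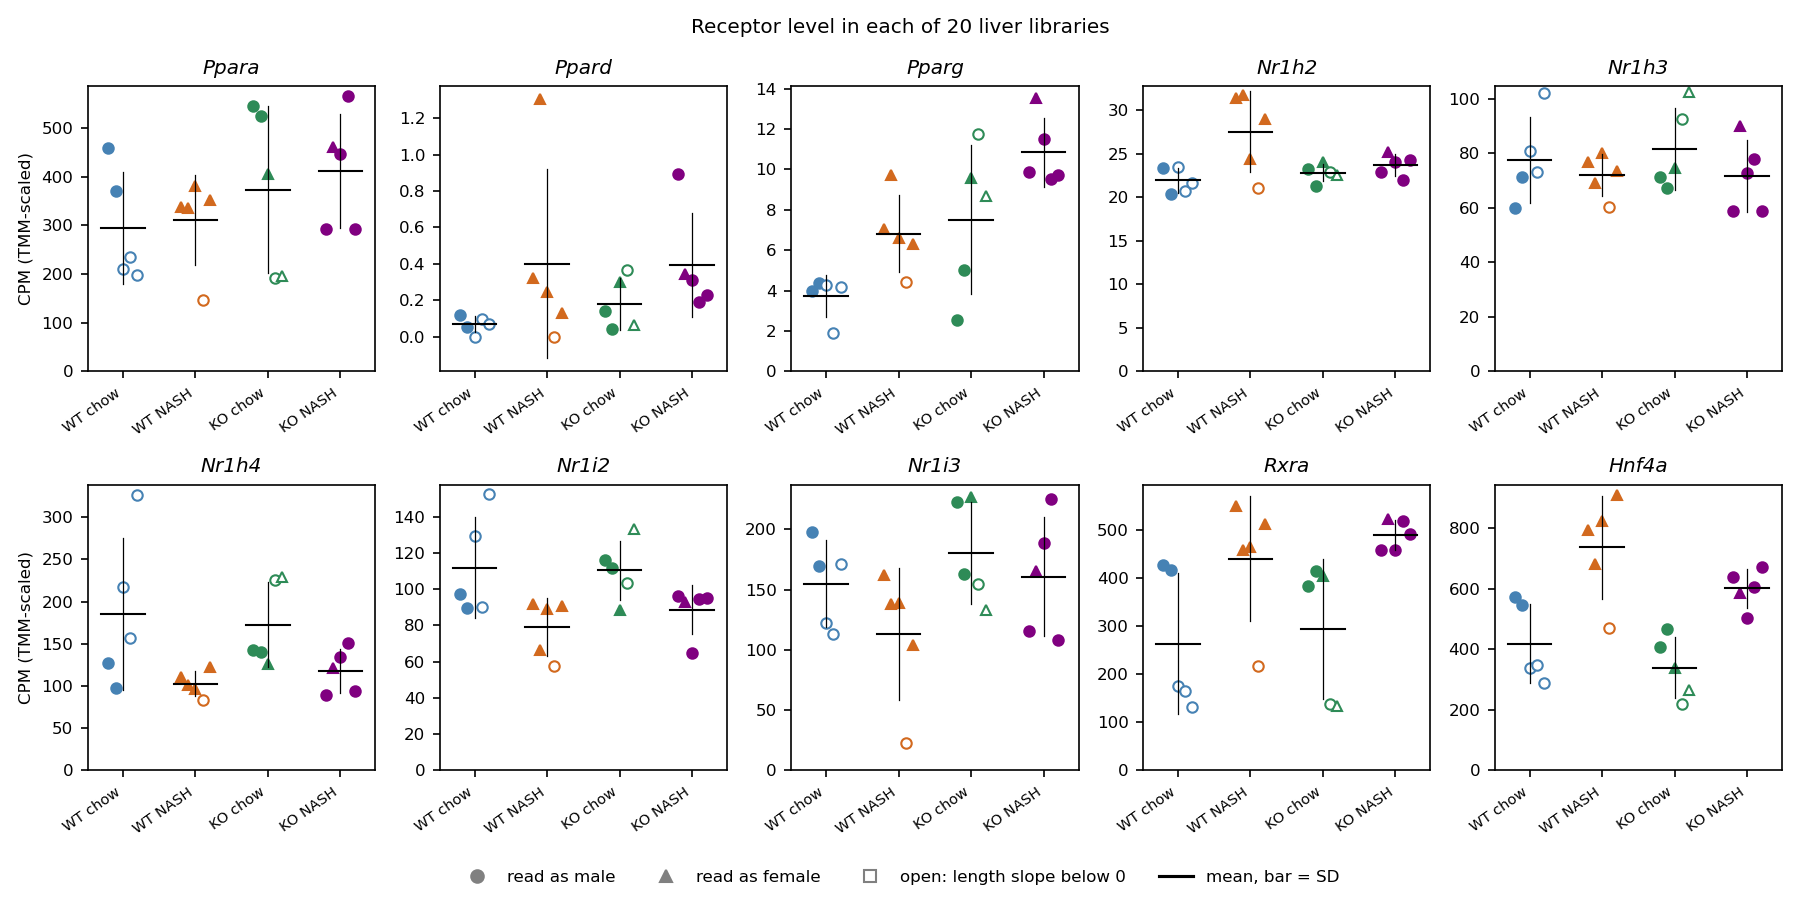
Level of each receptor in CPM (vertical axis) in the 20 liver libraries, by group (horizontal axis). Circles are libraries read as male, triangles as female, open symbols the 6 libraries with a length slope below 0, and lines and bars the mean and SD of 5 libraries. Rxra fell into a low and a high set of libraries in WT chow (132 to 175 and 418 to 428 CPM) and in KO chow, while all 5 KO NASH libraries lay between 458 and 523 CPM.

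Per kilobase of exon, the group means of the receptors fell into the same 3 tiers in every group. This scale does not remove the length slope, and outside KO NASH the tiers are averages over libraries with slopes below and above 0. The lowest Rxra values of WT chow and KO chow, 24.1 and 24.4 CPM per kilobase, came from libraries with a slope below 0. They lay under the lowest Nr1i2 values of these groups, 35.1 and 34.7 CPM per kilobase. Over single libraries the ranges of the first 2 tiers overlapped in every group. Hnf4a, Ppara, Nr1h4 and Rxra were the most abundant in each group, at 44.7 to 152 CPM per kilobase on group average. Nr1i2, Nr1i3 and Nr1h3 followed at 25.6 to 43.8 CPM per kilobase. Nr1h2 lay at 6.54 to 8.21, Pparg at 1.27 to 3.67 and Ppard at 0.00897 to 0.0532 CPM per kilobase. In WT chow neighbours in rank among the first 7 receptors could not be ordered, because their ranges over libraries overlapped. Some that stood further apart could be. Hnf4a and Ppara held at least 59.6 and 51.5 CPM per kilobase there, and Nr1i3 and Nr1h3 at most 44.8 and 40.6. From Nr1h2 on, each receptor lay below the one before it with no overlap in all 4 groups, except for Nr1h2 in WT NASH, where the range of Nr1i3 reached down to it. Hnf4a ranked first in WT chow (86.6 ± 27.0, SD, n = 5), WT NASH (152 ± 34.9) and KO NASH (124 ± 13.2 CPM per kilobase). In KO chow Ppara ranked first at 97.4 ± 44.8 CPM per kilobase and Hnf4a stood at 70.2 ± 20.9, but their ranges overlapped.

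Hnf4a, on chromosome 2 (GRCm38, 163506808 to 163572910, plus strand), was higher on the NASH diet in both genotypes, but edgeR called neither difference, while DESeq2 and limma voom called both. The WT chow libraries 1 to 5 held 573, 545, 339, 347 and 288 CPM, and the WT NASH libraries 793, 682, 824, 470.3 and 907 CPM. WT NASH 4, the only male of its group, was the only WT NASH library inside the WT chow range. The KO chow libraries held 408, 465, 336, 219 and 265 CPM, and the KO NASH libraries 638, 586, 503, 604 and 671 CPM, with no overlap. The share of all genes without overlap in this comparison was 8.5%. The log2 difference between diets was 0.81 (SE 0.25, edgeR adjusted p = 0.0561) in WT and 0.83 (SE 0.25, edgeR adjusted p = 0.0710) in KO. DESeq2 gave 0.81 in both genotypes (adjusted p = 0.0110 and 0.0148), and voom gave 1.14 and 0.61 (adjusted p = 0.000137 and 0.0290). Between genotypes it was -0.30 on chow (SE 0.25, edgeR adjusted p = 0.539) and -0.29 on the NASH diet (SE 0.25, edgeR adjusted p = 0.496). The difference between the diet effects of the 2 genotypes, the interaction, was 0.01 (SE 0.35, edgeR adjusted p = 0.996).

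The Hnf4a values moved with the length slope. Libraries with a slope below 0 held 0.581 times the mean of the others in WT chow, 0.600 times in KO chow and 0.587 times in WT NASH. With the slope as a term in the model Hnf4a was called in all 4 comparisons of groups, at 0.58 in WT (edgeR adjusted p = 0.00892) and 0.58 in KO (0.0176) for the diet, and at -0.49 on chow (0.0220) and -0.50 on the NASH diet (0.0164) for the genotype. With sex as a further term, 2 of these calls remained, KO chow against WT chow at -0.52 and KO NASH against KO chow at 0.59 (edgeR adjusted p = 0.0204 and 0.0136). The other 2 were 0.52 for the WT diet and -0.45 for the genotype on the NASH diet (edgeR adjusted p = 0.0782 and 0.0717). In the 14 libraries with a slope above 0, an alternative added after seeing the data, the differences were 0.53, -0.46, -0.42 and 0.57 in the order WT diet, chow genotype, NASH genotype and KO diet, and the last 2 were called (edgeR adjusted p = 0.0412 and 0.0346). In male libraries alone, where WT NASH is 1 library assumed to vary like the others, the WT diet difference was 0.14 (edgeR adjusted p = 0.912). Leaving out WT chow 1, WT chow 2, WT NASH 4, KO chow 4 or KO chow 5 in turn made the WT diet difference a called one, at 0.95, 0.93, 0.94, 0.82 and 0.81 (edgeR adjusted p = 0.0320, 0.0380, 0.0161, 0.0410 and 0.0471). The KO diet difference was called without WT NASH 4 (0.82, edgeR adjusted p = 0.0413).

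Rxra, on chromosome 2 (27676440 to 27762957, plus strand), split completely by the length slope over all 20 libraries. The WT chow libraries held 428, 418, 175, 166 and 132 CPM, and the WT NASH libraries 551, 458, 466, 218 and 513 CPM. The KO chow libraries held 384, 414, 405, 139 and 133 CPM, and the KO NASH libraries 459, 523, 458, 518 and 492 CPM. All 6 libraries at or below 218 CPM were those with a slope below 0, and the other 14 held 384 CPM or more. Within WT chow, KO chow and WT NASH, libraries with a slope below 0 held 0.372, 0.339 and 0.439 times the mean of the others. The exons of Rxra add up to 5462 bases, the longest of the 9 tested receptors. A split by slope within WT chow was common to many genes, as 58.8% of those tested were separated by it. The share of all genes that split over all 20 libraries was not taken. The diet difference of Rxra was 0.74 in WT (SE 0.38, edgeR adjusted p = 0.251) and 0.73 in KO (SE 0.38, edgeR adjusted p = 0.253). KO NASH did not overlap KO chow, where 8.5% of all genes did not. In the 14 libraries with a slope above 0 these differences were 0.24 and 0.29 (edgeR adjusted p = 0.350 and 0.152). Limma voom called the one in WT (1.35, adjusted p = 0.000328). Voom also called the genotype difference on chow (0.91, adjusted p = 0.0111). By edgeR Rxra differed across genotypes by 0.16 on chow and 0.15 on the NASH diet, each less than its SE of 0.37. Both turned negative with the slope as a term (-0.19 and -0.19, SE 0.15 in both; edgeR adjusted p = 0.460 and 0.409) and with sex and the slope (-0.26 and -0.08).

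Of the 9 tested receptors only Pparg had WT groups that did not overlap between diets, where 6.15% of all genes did not. The gap was narrow, from 4.39 CPM in WT chow 2 (81 counts) to 4.41 CPM in WT NASH 4 (30 counts). It lies within counting error. Pparg (chromosome 6, 115360951 to 115490399, plus strand) was low throughout, with 20 to 317 counts per library. The WT chow libraries held 3.97, 4.39, 4.28, 1.90 and 4.16 CPM and the WT NASH libraries 7.04, 9.73, 6.60, 4.41 and 6.33 CPM. The KO chow libraries spread most, at 2.55, 5.03, 9.55, 11.8 and 8.69 CPM, and the KO NASH libraries held 9.89, 13.6, 11.5, 9.53 and 9.75 CPM. Every KO NASH library lay above every WT chow library. These groups differ in both genotype and diet, and the share of all genes without overlap was not taken for them. The log2 differences were 0.87 for the diet in WT (SE 0.32, edgeR adjusted p = 0.116) and 0.99 for the genotype on chow (SE 0.32, edgeR adjusted p = 0.0769). They were 0.66 for the genotype on the NASH diet (SE 0.32, edgeR adjusted p = 0.192) and 0.53 for the diet in KO (SE 0.31, edgeR adjusted p = 0.310). Limma voom called both diet differences, at 0.96 in WT and 1.26 in KO (adjusted p = 0.0350 and 0.00501). The chow genotype difference was called by DESeq2 (1.00, adjusted p = 0.0318), with the slope as a term (1.00, edgeR adjusted p = 0.0412) and without KO chow 1 (1.22, edgeR adjusted p = 0.0205), and it was 0.45 in the 14 libraries with a slope above 0 (edgeR adjusted p = 0.549). Adding sex to the model gave 0.40 for the WT diet (edgeR adjusted p = 0.685), and adding sex and the slope gave a called genotype difference of 1.10 on the NASH diet (edgeR adjusted p = 0.0395). Of the defining adipocyte markers, Lep was at 0 counts in all 20 libraries and Retn at 0 in both WT groups, and the 5 markers summed to at most 1.32 CPM in WT chow, 0.969 in WT NASH and 5.15 in KO chow. In KO NASH they summed to 3.59 to 54.5 CPM, and Cfd, the only tested one, was called higher there than in WT NASH, as were 4.9% of all genes. In whole liver, more cells of a type and more RNA per cell cannot be told apart.

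Ppara (chromosome 15, 85734983 to 85802819, plus strand) differed little by group mean and widely within groups. The WT chow libraries held 459.7, 370.5, 211, 236 and 197 CPM, and the WT NASH libraries 337, 337, 381, 148 and 352 CPM. The KO chow libraries held 546, 526, 407, 193 and 196 CPM and the KO NASH libraries 293, 462, 447, 566 and 293 CPM. Like Rxra, it split completely by the slope over all 20 libraries (148 to 236 CPM below 0, 293 to 566 CPM above), and its low libraries stood at 0.518 (WT chow), 0.394 (KO chow) and 0.419 (WT NASH) times the mean of the others. As for Rxra, no share of all genes was taken for this split. The log2 difference was 0.08 for the diet in WT, 0.34 for the genotype on chow, 0.41 for the genotype on the NASH diet and 0.14 for the diet in KO, with SEs of 0.34 and edgeR adjusted p of 0.920, 0.627, 0.494 and 0.824. The WT diet difference turned to -0.28 with the slope as a term (edgeR adjusted p = 0.425). Limma voom called the genotype difference of Ppara on chow (0.96, adjusted p = 0.0104).

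Ppard (chromosome 17, 28232700 to 28301474, plus strand) was near the detection limit in these livers, with 0 to 22 counts per library and 97 in all. The 5 WT chow libraries held 5 counts together, WT NASH 33, KO chow 16 and KO NASH 43. The highest values were 22 counts in WT NASH 2 and 21 in KO NASH 1, and these 2 libraries held much of the totals of their groups. WT chow 3 and WT NASH 4 had 0 counts, which allows up to 3 counts. Scaled by total counts without the TMM correction, these limits were 0.224 and 0.301 CPM. The TMM factors of these libraries were 0.752 and 0.683, so the limits are higher on the CPM scale used for the other levels. No test was made.

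Nr1h4 (chromosome 10, 89454234 to 89533585, minus strand), which encodes FXR, was lower on the NASH diet in both genotypes, with no call by edgeR and a call in WT by DESeq2 (-0.87, adjusted p = 0.0321) and by limma voom (-0.91, adjusted p = 0.00199). The WT chow libraries held 128, 97.9, 217, 157 and 326 CPM, and the WT NASH libraries 111, 101, 96.0, 83.1 and 122 CPM. The KO chow libraries held 143, 140.3, 126, 226 and 229 CPM, and the KO NASH libraries 89.7, 122, 134, 151 and 94.5 CPM. The highest WT chow and KO chow values were all in libraries with a slope below 0, which held 2.07 and 1.67 times the mean of the others. In WT NASH the single such library was the lowest, at 0.771 times the others. The log2 difference for the diet was -0.85 in WT (SE 0.28, edgeR adjusted p = 0.0776) and -0.55 in KO (SE 0.28, edgeR adjusted p = 0.247). In WT it was -0.49 with the slope as a term and -0.06 in the 14 libraries with a slope above 0 (edgeR adjusted p = 0.160 and 0.910), and it was called without WT chow 2 (-1.01, edgeR adjusted p = 0.0285). The genotype differences were -0.10 on chow and 0.20 on the NASH diet (SE 0.28 in both), and the first turned to 0.21 without WT chow 5. Nr1h4 has exons of 2303 bases, the shortest of the 10 receptors.

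**Figure D2:**
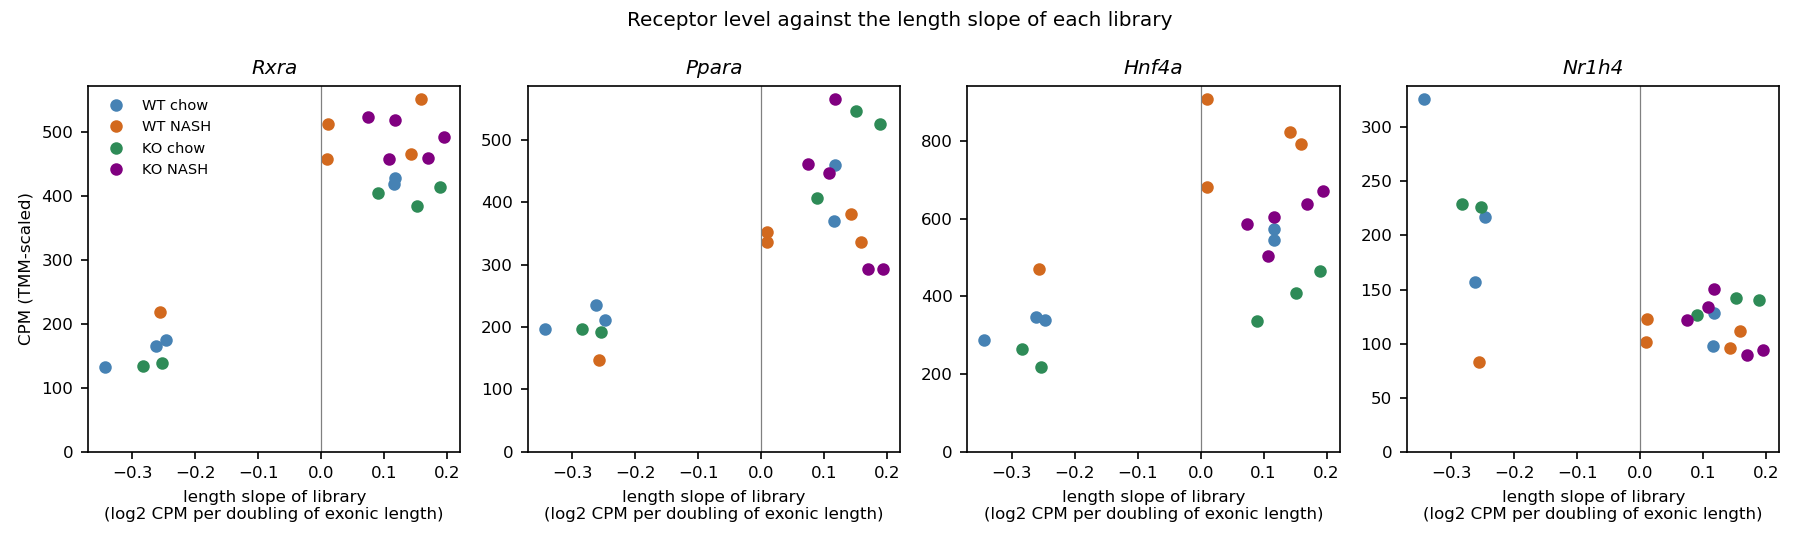
Level in CPM (vertical axis) of Rxra, Ppara, Hnf4a and Nr1h4 against the length slope of each library (horizontal axis, log2 CPM per doubling of exonic length), with 1 point per library coloured by group. The 6 libraries left of 0 held the lowest Rxra values of all 20 (132 to 218 CPM), and, among chow libraries, the highest Nr1h4 values (157 to 326 CPM).

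By their largest log2 difference in edgeR, the LXR genes differed least between groups among the 9. Nr1h3 (chromosome 2, 91184061 to 91202834, minus strand) averaged 77.6 ± 15.7 CPM (SD, n = 5) in WT chow, 72.1 ± 7.64 CPM in the WT NASH group, and 81.7 ± 15.2 and 71.8 ± 13.3 CPM in the KO groups on chow and on the NASH diet. Its log2 differences ran from -0.19 to 0.07 with SEs of 0.18. LXR alpha is also expressed by Kupffer cells, whose 9 markers summed to 332 to 2089 CPM over the libraries. Of the 9, only Cd68 was called in WT NASH and in KO chow against WT chow, higher in both, where 5.93% and 5.53% of all genes were called. Only Timd4 was called in KO NASH against WT NASH, where it was lower (9.65% of all genes called), and none was called in KO NASH against KO chow (3.29%). These marker counts lie near the shares of all genes. Nr1h2 (chromosome 7, 44549616 to 44553951, minus strand) lay at 20.4 to 25.2 CPM in the 15 libraries outside WT NASH. In WT NASH its libraries held 31.4, 31.8, 24.4, 21.04 and 29.0 CPM, and the male replicate 4 was the lowest. The diet difference in WT was 0.33 (SE 0.13, edgeR adjusted p = 0.150) and was called without WT NASH 4 (0.40, edgeR adjusted p = 0.0446). With sex as a term it was 0.18 (edgeR adjusted p = 0.687), and limma voom called it (0.37, adjusted p = 0.0177). The genotype difference of Nr1h2 on the NASH diet was -0.22 (SE 0.13, edgeR adjusted p = 0.318). That difference was called by voom (-0.28, adjusted p = 0.0358) and in the 14 libraries with a slope above 0 (-0.30, edgeR adjusted p = 0.0480).

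The xenobiotic receptors overlapped in every comparison of groups. Nr1i2 (chromosome 16, 38248323 to 38294824, minus strand) averaged 112 ± 28.01 CPM (SD, n = 5) in WT chow, 79.1 ± 16.1 CPM in the WT NASH group, and 110.5 ± 16.3 and 88.8 ± 13.3 CPM in the KO groups on chow and on the NASH diet. The diet difference of Nr1i2 was -0.50 in WT (SE 0.20, edgeR adjusted p = 0.138) and -0.32 in KO (SE 0.20, edgeR adjusted p = 0.338). Limma voom called the WT difference (-0.55, adjusted p = 0.0153). In the 14 libraries with a slope above 0 the WT difference was -0.14 (edgeR adjusted p = 0.717). Nr1i3 (chromosome 1, 171213970 to 171220701, plus strand) held 198, 169.8, 122, 113 and 171 CPM in WT chow and 162, 138, 139, 22.7 and 104 CPM in WT NASH. Its value of 22.7 CPM in WT NASH 4 was the lowest of all 20 libraries. KO chow ranged from 133 to 226 CPM and KO NASH from 109 to 225 CPM. The genotype difference on the NASH diet was 0.50 (SE 0.35, edgeR adjusted p = 0.396). In male libraries alone, where that single library stands for WT NASH, it was 2.85 (edgeR adjusted p = 0.00760), and in the 14 libraries with a slope above 0 it was 0.24 (edgeR adjusted p = 0.455).

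**Figure D3:**
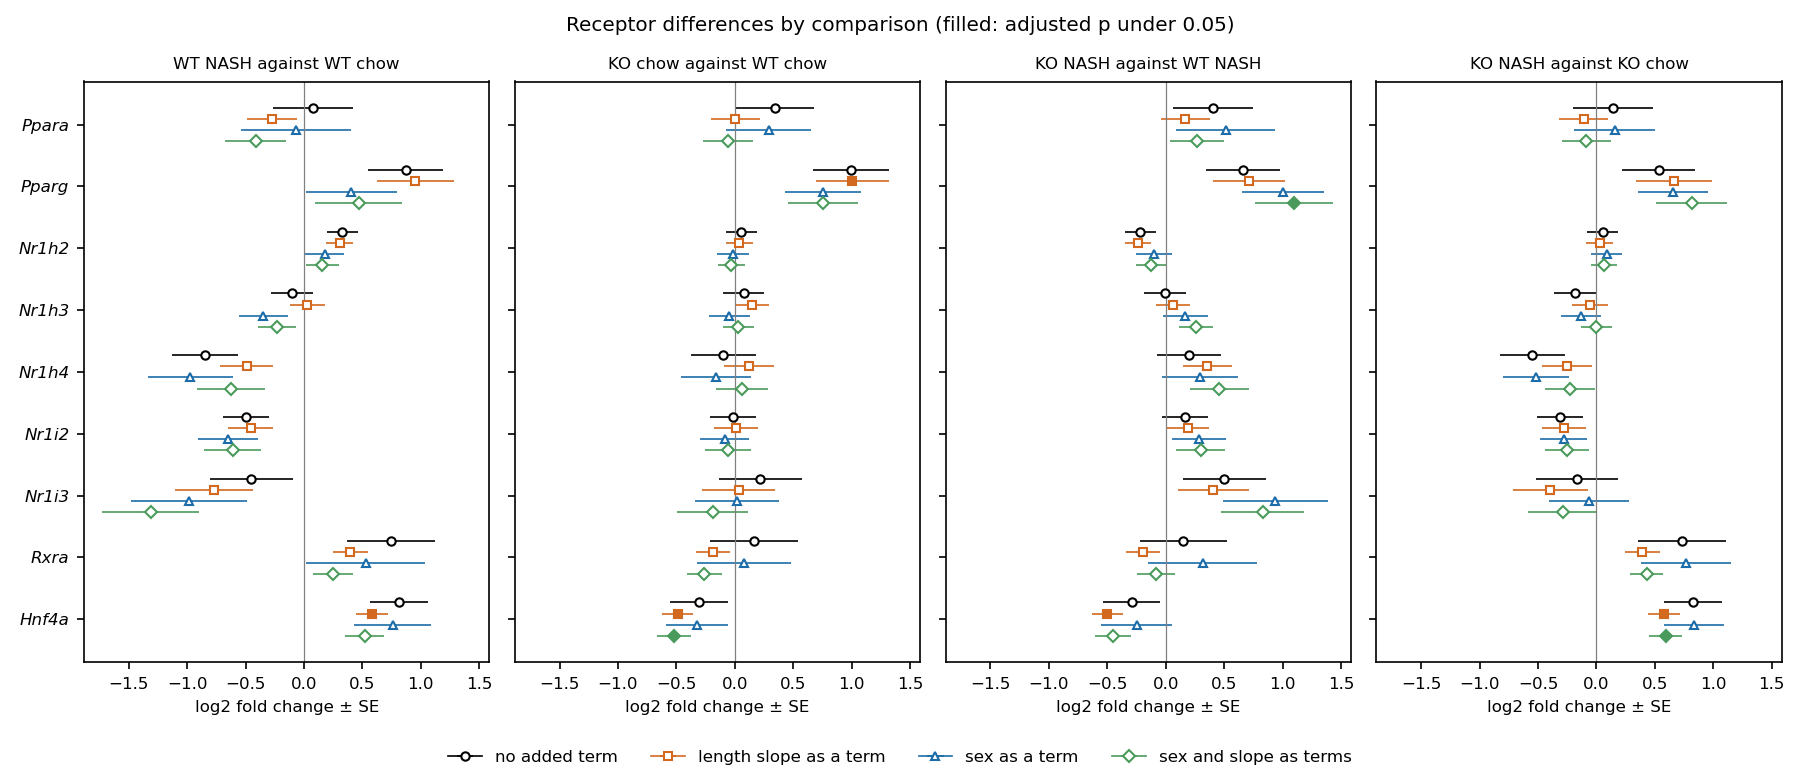
Log2 fold change ± SE (horizontal axis) of the 9 tested receptors (vertical axis) in the 4 comparisons of groups, for the reported model and for models with the length slope, sex, or both as terms. Filled symbols have an adjusted p under 0.05. No symbol of the reported model is filled, and Hnf4a is filled in all 4 panels with the slope as a term.

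The pattern of each receptor over the 20 libraries was compared with that of every tested gene averaging at least 5 CPM, by Pearson's r of log2(CPM + 1), and the 2 most alike are given, except for Nr1h4, where 1 is. Libraries share a depth scale and the length slope, so r describes these 20 points, and its value in the 14 libraries with a slope above 0 is given second. Rxra was most like Zbtb7a (0.98, then 0.65) and Arhgef18 (0.98, then 0.62). Hnf4a was most like Zmiz1 (0.96, then 0.89) and Ahdc1 (0.95, then 0.89), and Ppara like Cmtm4 (0.96, then 0.88) and Eif4g1 (0.94, then 0.82). Tmem222 was among the 2 genes most like Nr1h4 (0.93, then 0.61), and Nr1h3 was most like Hadh (0.84, then 0.54) and also Tmem222 (0.80, then 0.55). Nr1i3 was most like Fbxw4 (0.91, then 0.71) and Mgll (0.89, then 0.72), and Nr1i2 like Rrn3 (0.89, then 0.82) and Tmem199 (0.86, then 0.75). Pparg was most like Ddah1 (0.81, then 0.64) and Rcan2 (0.81, then 0.77), and Nr1h2 like Cux2 (0.81, then 0.84) and Cpne2 (0.79, then 0.88). Among the receptors themselves, Rxra and Hnf4a ran together (r = 0.86, then 0.74). Ppara and Rxra did so over 20 libraries (r = 0.79) and not over the 14 (r = -0.31), while Ppara and Nr1h4 went from r = -0.31 over 20 to 0.89 over the 14.

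Of 14 partners and coregulators of the receptors, 12 were tested, and edgeR called only Nr0b2, in KO on chow and on the NASH diet, where 2.49% and 4.74% of all genes were called lower. A count of 1 of 12 lies near these shares. Nr0b2 encodes SHP, a receptor without a DNA-binding domain that FXR induces and that represses other receptors. It held 14.04, 8.56, 40.5, 38.3 and 42.1 CPM in the WT chow libraries and 30.4, 31.2, 26.1, 79.3 and 26.2 in the WT NASH libraries. In KO chow they held 1.16, 0.563, 3.96, 3.99 and 9.11 CPM, and the KO NASH libraries 3.16, 16.3, 5.40, 16.9 and 4.26 CPM. Nr0b2 was lower in KO on chow (log2 difference -2.94, SE 0.67, edgeR adjusted p = 0.0139) and on the NASH diet (-2.06, SE 0.64, edgeR adjusted p = 0.0448). The NASH call was not made with sex in the model (-1.95, edgeR adjusted p = 0.0878), and it was lost when any of 10 of the 20 libraries was left out (edgeR adjusted p of 0.0511 to 0.133). The highest WT NASH library, at 79.3 CPM, was the male replicate 4, which also had a length slope below 0. So had WT chow 3, 4 and 5, the highest of their group. The list's median log2 difference was -0.08 on chow and -0.06 on the NASH diet, against 0.00 over all genes in both.

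Among listed PPAR targets, the genes that edgeR called fell with the NASH diet in WT and rose in KO, and edgeR called neither Ppara nor Pparg in these comparisons. Of 25 tested PPAR alpha targets, 10 fell and none rose in WT NASH against WT chow, with a median log2 difference of -0.89 (all genes 0.01), where 3.24% of all genes were called lower. In KO, 6 rose on chow (median 0.83; 3.03% of all genes called higher) and 7 rose on the NASH diet (median 1.08; 4.9% called higher), and none fell. In KO NASH against KO chow 2 fell (median -0.60; 1.52% called lower). With sex as a term 2 of the 25 were called lower in WT NASH against WT chow, and with sex and the slope 5 were. On the NASH diet 6 and 13 were called higher in KO under these models. Leaving out 1 library gave 7 to 11 lower in WT, 2 (without WT chow 4) to 9 higher in KO on chow, 4 (without WT NASH 2) to 11 higher in KO on the NASH diet, and 1 (without KO chow 1) to 8 lower in KO NASH against KO chow. The lists were drawn up with earlier results of these data known, and their counts describe them.

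Among these targets, Ehhadh, a peroxisomal enzyme of fatty acid oxidation, was called in all 4 comparisons. Its libraries held 981, 756, 5149, 1953 and 1548 CPM in WT chow, 444, 387, 391, 183 and 351 in WT NASH, 13638, 14680.3, 3399, 11184 and 13635 in KO chow, and 1799, 1844, 3734, 1818 and 1694 in KO NASH. WT NASH was the lowest group and KO chow the highest, with KO chow 3 and WT chow 3 out of line with their groups. The log2 difference was -2.56 for the diet in WT (SE 0.48, edgeR adjusted p = 0.00379), 2.44 and 2.63 for the genotype on chow and on the NASH diet (SE 0.48 in both, edgeR adjusted p = 0.00567 and 0.00216), and -2.38 for the diet in KO (SE 0.48, edgeR adjusted p = 0.0141). The WT diet call of Ehhadh was lost with sex in the model (-2.47, edgeR adjusted p = 0.0755) and the other 3 were kept. Cyp4a14, a fatty acid omega-hydroxylase, fell most in WT on the NASH diet, from 9119 ± 4729 to 824 ± 701 CPM (SD, n = 5; log2 difference -3.47, SE 0.77, edgeR adjusted p = 0.0111). It reached 5.00 CPM in WT NASH 4, where the other 4 libraries held 535 to 1904 CPM, and with sex in the model the difference was -4.10 and not called (edgeR adjusted p = 0.0797). Its close relative Cyp4a31 rose most in KO on the NASH diet, from 11.3 ± 7.18 to 290.0 ± 147 CPM (log2 difference 4.67, SE 0.56, edgeR adjusted p = 5.68e-05). Pdk4, the kinase that restrains pyruvate oxidation, rose most in KO on chow, from 13.1 ± 4.99 to 177 ± 187 CPM (3.76, SE 0.70, edgeR adjusted p = 0.00400). Pdk4 in the KO chow libraries ran from 22.1 to 426 CPM and lay above all WT chow libraries, where 4.91% of all genes did not overlap. The Cyp4a, Cyp2b and Cyp2c genes belong to families of near-identical copies, and the sources used here do not say how shared reads were counted.

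**Figure D4:**
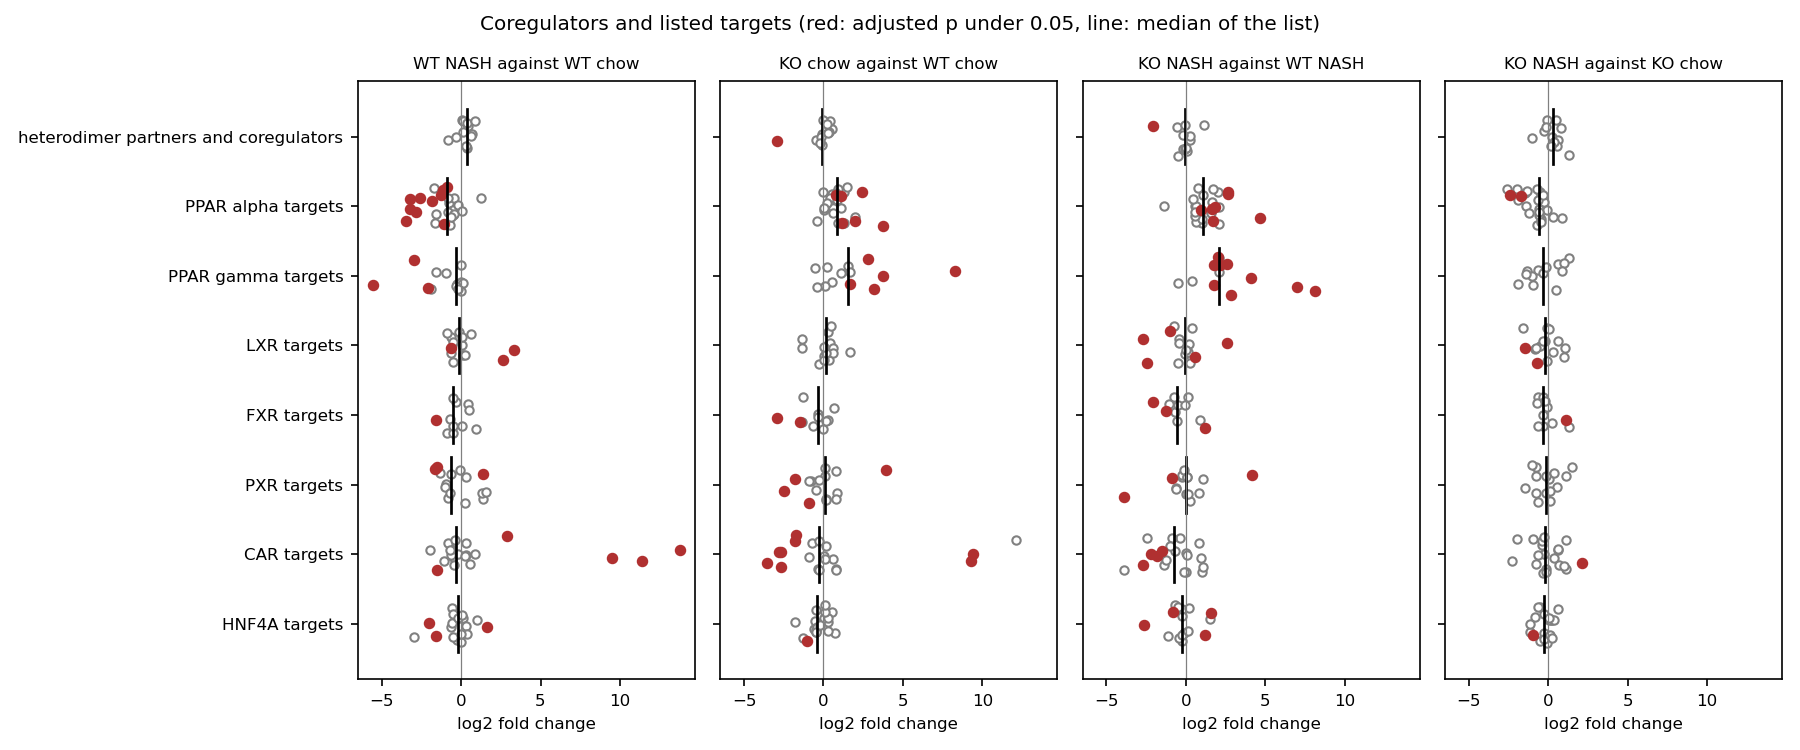
Log2 fold change (horizontal axis) of each tested gene in the list of partners and coregulators and in the 7 target lists (vertical axis), in the 4 comparisons of groups. Red points have an adjusted p under 0.05 and black lines mark the median of each list. The PPAR alpha median lies at -0.89 in WT NASH against WT chow and at 0.83 and 1.08 in the KO comparisons with WT.

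Of 13 tested PPAR gamma targets, 5 rose in KO on chow (median 1.53; 3.03% of all genes called higher) and 9 on the NASH diet (median 2.08; 4.9% called higher), and none fell. In WT NASH against WT chow 3 fell (median -0.32; 3.24% called lower), and in KO NASH against KO chow none was called by edgeR, against 3 lower and 1 higher by DESeq2. Cidec, a protein of large lipid droplets, held 20.3, 11.5, 67.2, 70.6 and 41.6 CPM in WT chow and 0.904, 0.534, 0.787, 0.588 and 1.61 in WT NASH. It held 370.3, 442, 99.9, 211 and 352 CPM in KO chow and 121, 77.6, 146, 104 and 124 in KO NASH. All 4 groups were apart from each other except for the KO groups, which overlapped. Of all genes, 6.15% did not overlap between diets in WT, 4.91% between genotypes on chow and 14.1% between genotypes on the NASH diet. No share was taken for groups that differ in both. The log2 difference was -5.54 for the diet in WT (SE 0.54, edgeR adjusted p = 8.53e-06), 2.81 for the genotype on chow (SE 0.46, edgeR adjusted p = 0.00153) and 6.98 on the NASH diet (SE 0.57, edgeR adjusted p = 4.73e-07). Cd36, a fatty acid transporter outside the naming rule and chosen after its values were seen, lay at 53.1 to 309 CPM in the 10 WT libraries and at 447 to 2924 CPM in the 10 KO libraries. The share of all genes apart in this way was not taken. Its genotype difference was 3.20 on chow (SE 0.48, edgeR adjusted p = 0.000811) and 1.80 on the NASH diet (SE 0.45, edgeR adjusted p = 0.0170). Aqp7, a glycerol channel chosen in the same way, had 1 count in WT chow 4, 1 in WT NASH 5 and 0 in the other 8 WT libraries, and lay at 1.49 to 12.4 CPM in every KO library. The 13 tested genes passed the filter in part through the groups where they are high. Pdk4 and Angptl4 are in both PPAR lists.

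**Figure D5:**
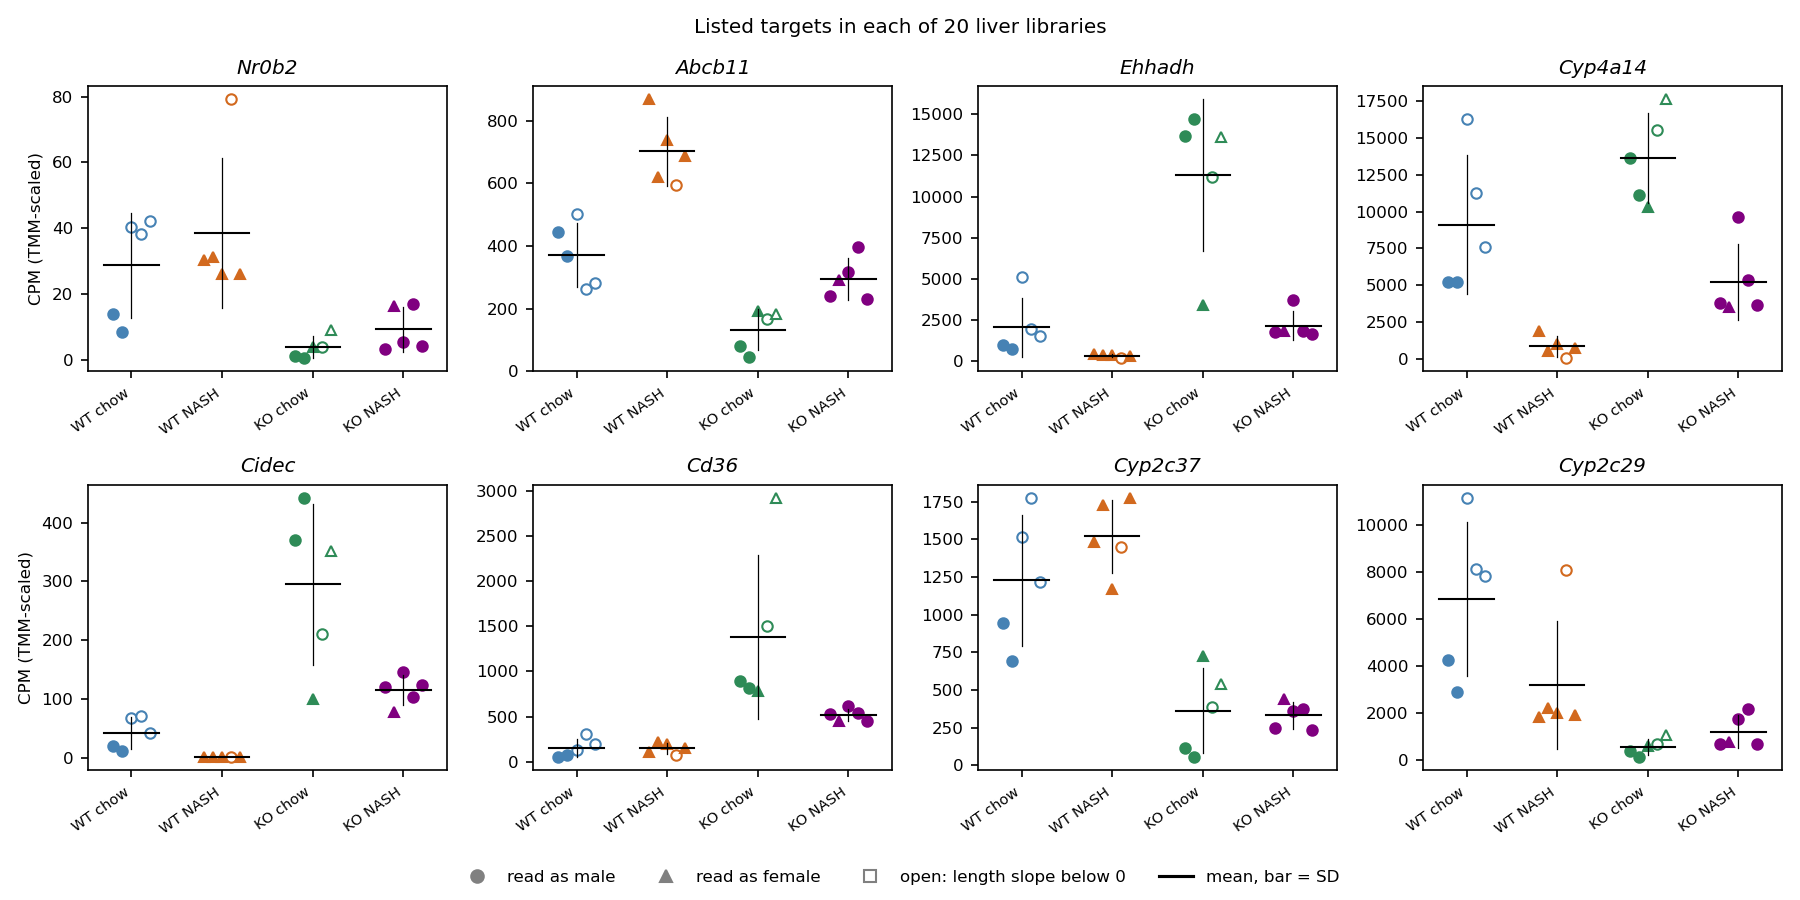
Level in CPM (vertical axis) of Nr0b2, Abcb11, Ehhadh, Cyp4a14, Cidec, Cd36, Cyp2c37 and Cyp2c29 in the 20 libraries by group (horizontal axis), with symbols as in the plot of receptor levels. Cidec lay at 0.534 to 1.61 CPM in WT NASH and at 77.6 to 146 CPM in KO NASH, and Abcb11 at 594 to 869 and at 230.3 to 397 CPM.

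Few FXR targets were called, and the 2 that fell in KO, Nr0b2 and Abcb11, were the same on both diets. Of 11 tested, 1 fell in WT NASH against WT chow, 2 fell in KO on chow, 1 rose and 2 fell in KO on the NASH diet, and 1 rose in KO NASH against KO chow. Background shares in those directions were 3.24%, 2.49%, 4.9%, 4.74% and 1.77%. Abcb11, the bile salt export pump, whose IR1 match is printed above, held 445, 367, 501, 264 and 281 CPM in WT chow and 869, 621, 737, 594 and 688 in WT NASH. It held 82.1, 47.2, 192, 166 and 182 CPM in KO chow and 241, 291, 318, 397 and 230.3 in KO NASH. Each genotype was higher on the NASH diet with no overlap, and each KO group lay below its WT group with no overlap. The genotype difference was -1.47 on chow (SE 0.31, edgeR adjusted p = 0.00946) and -1.25 on the NASH diet (SE 0.31, edgeR adjusted p = 0.0171). These shares of non-overlapping genes were 6.15%, 8.5%, 4.91% and 14.1% of all genes for the WT diet, KO diet, chow genotype and NASH genotype comparison. The diet difference was 1.14 in KO (SE 0.31, edgeR adjusted p = 0.0484; lost when any of 16 libraries was left out) and 0.92 in WT (SE 0.31, edgeR adjusted p = 0.0858, not called). The genotype difference on the NASH diet was -0.94 with sex as a term and no longer called (edgeR adjusted p = 0.113). Cyp8b1, the sterol hydroxylase of cholic acid synthesis that SHP is known to repress, fell in WT on the NASH diet from 721 ± 110.3 to 239 ± 32.2 CPM (-1.59, SE 0.29, edgeR adjusted p = 0.00311). It rose in KO on the NASH diet to 546 ± 328 CPM (1.19, SE 0.29, edgeR adjusted p = 0.0145). Neither Cyp8b1 difference was called under the model with sex (-1.31 and 0.96, edgeR adjusted p = 0.0951 and 0.102), and the rise was not called without KO NASH 3 (0.78, edgeR adjusted p = 0.0504).

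LXR targets were called in both directions. Of 15 tested, 2 rose and 1 fell in WT NASH against WT chow, none was called in KO on chow (1 by DESeq2), 2 rose and 3 fell in KO on the NASH diet, and 2 fell in KO NASH against KO chow. Of all genes, 2.69% were called higher and 3.24% lower in the WT diet comparison, 4.9% and 4.74% in the genotype comparison on the NASH diet, and 1.52% lower in KO NASH against KO chow. Fasn, fatty acid synthase, rose in WT on the NASH diet from 28.1 ± 17.7 to 289 ± 122 CPM (3.36, SE 0.51, edgeR adjusted p = 0.000641), with WT NASH 4 the lowest of its group at 80.0 CPM. In KO NASH it stood at 45.0 ± 19.9 CPM, below WT NASH (-2.68, SE 0.49, edgeR adjusted p = 0.00207). Srebf1, the regulator of lipid synthesis outside the naming rule and chosen after its values were seen, was the other called riser, from 19.0 ± 3.40 to 117 ± 40.6 CPM (2.61, SE 0.31, edgeR adjusted p = 7.41e-05). Srebf1 was also called lower in KO NASH than in WT NASH (-0.97, edgeR adjusted p = 0.0417), but not with sex in the model (-0.56, edgeR adjusted p = 0.315). Abcg5, a sterol exporter, fell most in KO NASH against KO chow, from 167 ± 50.1 to 60.3 ± 9.99 CPM (-1.47, SE 0.21, edgeR adjusted p = 0.00191). Lpcat3, a phospholipid-remodelling enzyme, fell on the NASH diet in WT, from 107 ± 6.94 to 69.1 ± 6.04 CPM (-0.63, SE 0.15, edgeR adjusted p = 0.0154). The Lpcat3 call was lost with sex in the model (-0.54, edgeR adjusted p = 0.192) and with sex and the slope (-0.56, edgeR adjusted p = 0.0515). It was also lost in the 14 libraries with a slope above 0 (-0.49, edgeR adjusted p = 0.0873). Lpl, lipoprotein lipase, was called higher in KO NASH than in WT NASH (2.59, SE 0.65, edgeR adjusted p = 0.0176), where 2 of 5 libraries held 519 and 449 CPM and the other 3 held 26.2 to 52.8 CPM, within or near the WT NASH range of 26.0 to 48.1 CPM. The Lpl call was lost without KO NASH 1 (1.99) or KO NASH 5 (2.15), at edgeR adjusted p of 0.0618 and 0.0561. KO NASH 1 and 5 were the same-group pair that differed least. As 1 sample they gave 2.08 for Lpl (edgeR adjusted p = 0.0591). The call was also lost with sex in the model (1.71, edgeR adjusted p = 0.195) and with the replicate block (2.23, edgeR adjusted p = 0.0653).

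CAR targets, which include many cytochrome P450 genes of drug metabolism, were called in both directions. Of 20 tested, 2 rose and 6 fell in KO on chow, where 3.03% and 2.49% of all genes were called in those directions. Leaving out 1 library gave 1 (without WT chow 2) to 3 higher and 3 (without WT chow 3) to 6 lower. In WT NASH against WT chow 4 rose, where 2.69% of all genes were called higher, and 1 fell. In KO on the NASH diet 4 fell (4.74% of all genes called lower; 1 of the list without WT NASH 4), and in KO NASH against KO chow 1 rose (1.77% called higher). Cyp2c29 fell most in KO on chow, from 6867 ± 3293 to 575 ± 353 CPM (-3.58, SE 0.59, edgeR adjusted p = 0.00168), and all 5 KO chow libraries lay below all 5 WT chow libraries. Of all genes, 4.91% did not overlap in this comparison. Cyp2c37 fell most in KO on the NASH diet, from 1521 ± 244 to 332 ± 90.5 CPM (-2.19, SE 0.49, edgeR adjusted p = 0.00870). With sex and the slope as terms the Cyp2c37 difference was -1.11 and not called (edgeR adjusted p = 0.0832). Alas1, the first enzyme of heme synthesis, fell in WT on the NASH diet from 846 ± 272 to 298 ± 158 CPM (-1.51, SE 0.37, edgeR adjusted p = 0.0207), and was not called without WT chow 5 (-1.40) or WT NASH 2 (-1.42; edgeR adjusted p = 0.0555 and 0.0640) or with sex in the model (-1.88, edgeR adjusted p = 0.0929). Gstm3, a glutathione transferase, rose most in KO NASH against KO chow, from 1.76 ± 0.568 to 7.95 ± 2.01 CPM (2.16, SE 0.45, edgeR adjusted p = 0.0171). The CAR genes that rose most in WT on the NASH diet are known to be expressed mainly in female mouse liver. Sult2a1 held 13.4, 1381, 114 and 976 CPM in the 4 WT NASH libraries read as female and 0.294 CPM in the male, and 2 counts in all of WT chow, which held males alone. Cyp2b9 held 562 to 796 CPM in those females and 0.588 CPM in the male. Cyp2b9 lay at 281 to 629 CPM in the KO NASH libraries, 4 of them read as male, and at most at 2.19 CPM in the WT chow males. The part of sex in these values was not tested beyond the model with sex as a term. The WT diet call of Sult2a1 and that of Cyp2b9 were both lost with sex in the model (2.46 and 6.51, edgeR adjusted p = 0.631 and 0.1001), and the Cyp2b9 rise in KO on chow, 9.41 (SE 1.57, edgeR adjusted p = 0.00170), was kept at 7.58 (edgeR adjusted p = 0.00214). Limma voom did not call that rise (7.45, adjusted p = 0.0674).

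PXR and HNF4 alpha targets were called in both directions. Of all genes, 2.69% were called higher and 3.24% lower in the WT diet comparison, 3.03% and 2.49% in KO on chow, 4.9% and 4.74% in KO on the NASH diet, and 1.77% and 1.52% in KO NASH against KO chow. Of 15 tested PXR targets, 1 rose and 2 fell in WT NASH against WT chow, 1 rose and 3 fell in KO on chow, 1 rose and 2 fell in KO on the NASH diet, and none was called by edgeR in KO NASH against KO chow (2 by DESeq2). Cyp3a11, the main mouse PXR target, with the DR4 match printed above, fell in WT on the NASH diet from 5395 ± 2444 to 1689 ± 555 CPM (-1.68, SE 0.47, edgeR adjusted p = 0.0394), a call lost when any of 8 libraries was left out (edgeR adjusted p of 0.0506 to 0.108). The Cyp3a11 difference was -1.17 with the slope as a term and -0.94 in the 14 libraries with a slope above 0, called in neither (edgeR adjusted p = 0.0613 and 0.209). Gstm1 rose in WT NASH against WT chow, from 231 ± 135 to 591 ± 194 CPM (1.36, SE 0.40, edgeR adjusted p = 0.0465). It missed the threshold in the model with sex (1.43, edgeR adjusted p = 0.248) or when any of 15 libraries was left out, and the difference was 0.30 in male libraries alone. Thrsp, a lipogenic protein, fell most in KO, from 30.9 ± 35.8 to 5.59 ± 2.49 CPM on chow (-2.47, SE 0.69, edgeR adjusted p = 0.0410; lost when any of 8 libraries was left out) and from 91.1 ± 36.3 to 6.11 ± 6.82 CPM on the NASH diet (-3.90, SE 0.73, edgeR adjusted p = 0.00251). Of 19 tested HNF4 alpha targets, 1 rose and 2 fell in WT NASH against WT chow, 1 fell in KO on chow, 2 rose and 2 fell in KO on the NASH diet, and 1 fell in KO NASH against KO chow. Pklr, liver pyruvate kinase, rose in WT on the NASH diet from 40.2 ± 12.3 to 122 ± 44.5 CPM (1.60, SE 0.37, edgeR adjusted p = 0.0158; 0.61 and 0.499 with sex as a term) and was lower in KO NASH at 19.8 ± 9.36 CPM (-2.62, SE 0.39, edgeR adjusted p = 0.000465). Apoa4, a lipid transport protein, fell in WT on the NASH diet from 2672 ± 937 to 667 ± 429.6 CPM (-2.003, SE 0.43, edgeR adjusted p = 0.00909; -2.06 and 0.0821 with sex as a term). It was higher in KO NASH, at 2001 ± 1145 CPM (1.59, SE 0.42, edgeR adjusted p = 0.0234; 1.63 and 0.0699 with sex as a term), and this call was lost without WT NASH 2, 3 or 4 or KO NASH 3 (edgeR adjusted p of 0.0505 to 0.0844). Serpina1a fell in KO on chow (-1.07, SE 0.25, edgeR adjusted p = 0.0189; 0.0630 without WT chow 3 and 0.0555 without KO chow 2), and Mttp, which loads lipoproteins, fell in KO NASH against KO chow from 588 ± 59.0 to 299 ± 77.5 CPM (-0.98, SE 0.20, edgeR adjusted p = 0.0170; 0.0529 without KO NASH 5).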

How the data were processed

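RNA sequencing of mouse liver gave 20 libraries in 4 groups of 5. The authors deposited 1 table of whole-number read counts by gene symbol. HISAT2 2.0.4 and the build GRCm38 are named in the submitters' processing notes, with no role given. The sources used here name no counting program or strand setting. Columns named "CD" and "HFD" were taken as chow and NASH diet, as the labels name no other diet. The filter of edgeR 4.0.16 (filterByExpr, minimum count 10; R 4.3.3) kept 14440 of 26350 symbols with a count, holding 99.91% of counts. With TMM scaling, 1 coefficient per group was fitted to all 20 libraries and tested by quasi-likelihood F test, called at an adjusted p under 0.05. The common biological coefficient of variation was 39%. SEs came from the log2 fold change and the F statistic. CPM precision is limited by counting error only at low counts, as for Ppard and for Pparg in some libraries. Intervals and floors cover counting error only.

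Exonic lengths are from GENCODE M21 (GRCm38), and the length slope used the 9499 genes whose log2 CPM averaged 2 or more. A library was read as male from 100 counts upward, summed over 4 Y-linked genes. Alternatives included DESeq2 1.42.0, limma 3.58.1 voom, other scalings and filters, sex and slope terms, and leaving out each library. The scripts were tested on simulated data. The members, lists and tests were chosen with earlier results of these data known. Named genes are the 10 receptors, the most raised and most lowered called gene of each list and comparison of groups that averaged 5 CPM or more, and the 2 genes most like each receptor. Of these, 1 gene is not reported here.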

Additional observations from a re-analysis of the deposited data

Results flagged for a closer look

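Groups of 5 libraries were examined for a single library far from the other 4, by Dixon's criterion on the gap over the range. Of 136 gene and group pairs, 13 met it, 4 of them among the 36 receptor pairs; chance alone flags about 1 in 20. Among the receptors, Ppara in WT NASH 4 held 147.6 CPM against 337 to 381 in the others, and Rxra in the same library held 218 against 458 to 551 CPM. WT NASH 4 is the only male of its group and the only one with a length slope below 0; the part of either in these values was not tested. Pparg in WT chow 4 held 1.90 against 3.97 to 4.39 CPM, and Nr1i2 in KO NASH 3 held 65.1 against 93.2 to 96.1 CPM.

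Among the targets, WT NASH 4 also held the highest Cyp2c29, 8084 against 1864 to 2247 CPM, and the highest Nr0b2, 79.3 against 26.1 to 31.2 CPM. KO NASH 3 held more Ehhadh (3734 against 1694 to 1844 CPM), Pdk4 (121 against 23.4 to 35.1 CPM) and Apoa4 (4025 against 1281 to 1764 CPM) than the other KO NASH libraries. Ehhadh in WT chow 3 held 5149 against 756 to 1953 CPM. Thrsp held 93.6 CPM in WT chow 5 against 5.51 to 25.1 CPM, and 17.97 CPM in KO NASH 4 against 1.496 to 5.73 CPM. Sult2a1 held 164 CPM in KO NASH 2, the library of that group read as female, and 0 counts in the other 4.

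The diet effect differed between the genotypes for 2 list genes. The interaction of Cidec was 4.17 on the log2 scale (edgeR adjusted p = 0.0111), and 3.70 (edgeR adjusted p = 0.178) with sex as a term. The interaction of Cyp2b9 was -9.79 (edgeR adjusted p = 0.0348; -5.36 and 0.607 with sex as a term).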

How the results depend on the processing

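The count of 0 receptors called held in the interaction under every alternative, and moved in each comparison of groups under some. In WT NASH against WT chow it was 1 at a mean of at least 5 CPM, 2 by DESeq2, 6 by limma voom, 1 with the replicate block, 1 with the slope term and 1 in males alone. In KO chow against WT chow it was 1 by DESeq2, 2 by voom, 2 with the slope term and 1 with sex and slope. In KO NASH against WT NASH it was 1 by voom, 1 with only the groups compared, 1 with the slope term, 1 with sex and slope, 1 in males alone and 2 in the 14 libraries with a slope above 0. In KO NASH against KO chow it was 1 by DESeq2, 2 by voom, 1 with the replicate block, 1 with the slope term, 1 with sex and slope and 1 in those 14 libraries. Leaving out 1 library gave 0 to 2, 0 to 1, 0 to 0, 0 to 1 and, for the interaction, 0 to 0. The cause was not tested.

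Replicate numbers were not taken as pairs in the reported model. The lowest correlations of same-numbered libraries were -0.09, -0.40, -0.42, -0.13 and -0.22, and the highest 0.61, 0.54, 0.39, 0.56 and 0.47. Of the 20 libraries, 7 were closest to their own number. With the replicate block Hnf4a was called in WT (0.84, edgeR adjusted p = 0.0384) and in KO (0.88, edgeR adjusted p = 0.0452) for the diet. KO NASH 1 and 5 differed least of the same-group pairs (chi-square per degree of freedom 7.98, others at least 21.6) and were kept apart. As 1 sample the counts of calls were 764 in place of 1393 in KO NASH against WT NASH, 180 in place of 475 in KO NASH against KO chow and 4 in place of 20 in the interaction, and 4 of 32 calls of named target genes were lost.

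Over all genes the calls ran from 36 to 5866 around 857 in WT NASH against WT chow, 51 to 5836 around 798 in KO chow against WT chow, 625 to 3434 around 1393 in KO NASH against WT NASH, 59 to 1835 around 475 in KO NASH against KO chow and 4 to 1949 around 20 in the interaction; the highest were by voom. Leaving out 1 library gave 414 (WT NASH 2) to 1712 (WT NASH 4), 347 (KO chow 2) to 1219 (KO chow 5), 714 (KO NASH 5) to 1727 (KO chow 5), 147 (KO NASH 5) to 792 (WT NASH 4) and 4 (WT chow 3) to 144 (WT NASH 4).

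Of the receptor values, 36 uncalled log2 differences changed sign and moved by more than their SE; smaller changes of sign were also seen and are not listed here. For the WT diet, Ppara was -0.28 with the slope, -0.41 with sex and slope, -1.03 in males and -0.64 in the 6 libraries with a slope below 0; Nr1h2 was -0.084 in males and -0.16 in those 6; Nr1h3 was 0.21 in the other 14 and Rxra -0.30 in males. For the chow genotype, Ppara was -0.059 with sex and slope and -0.10 in the 6; Nr1h3 was -0.14 and Hnf4a 0.12 by voom; Nr1h4 was 0.28 and Nr1i2 0.18 in the 14, and Nr1h4 0.21 without WT chow 5. Nr1i3 was -0.19 and Rxra -0.26 with sex and slope. For the NASH genotype, males gave 0.18 for Nr1h2, 0.18 for Nr1h3 and 0.39 for Hnf4a, and sex and slope 0.26 for Nr1h3. For the KO diet, the 14 gave -0.26 for Ppara and 0.017 for Nr1h3. For the interaction, voom gave -0.70 for Ppara, 0.30 for Pparg and -0.52 for Hnf4a. Sex as a term gave 0.25 for Pparg and 0.22 for Nr1h3, and sex and slope 0.34 and 0.23. Males gave 0.46 for Pparg, 0.13 for Nr1h2, 0.18 for Nr1h3 and 0.92 for Rxra, and the 14 gave -0.15 for Nr1h4 and -0.11 for Nr1i2. Of 32 calls of named target genes, 19 were lost in males alone, 12 with sex as a term, 8 in the 14 libraries and 1 with the slope term. Among the receptors counts were lowest for Ppard, at 0 to 22 per library, and next lowest for Pparg, at 20 to 317.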
